A study of Rattus norvegicus with 10 samples.

Results

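miR-675 and miR-483 are the miRNAs made from the imprinted H19-Igf2 locus. The members were taken by name, as every row of the count files whose name begins with rno-miR-675 or rno-miR-483, which gave 4 mature miRNAs of the 723 listed, the 5p and the 3p arm of each hairpin. All 4 passed the filter on low values and are among the 359 miRNAs tested. The locus was selected on read counts of these same libraries, in which rno-miR-675-3p was high 1 h after mechanical stimulation relative to the libraries before therapy, so that comparison is given here as a description with no test.

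The data are small RNA reads from 10 libraries of female Wistar rats with collagen-induced arthritis (CIA), an autoimmune joint disease raised by injecting bovine type II collagen in Freund's adjuvant, which every rat carried. The 5 groups hold 2 libraries each: CIA_B before any therapy, MS_E and MS_A at 1 h and 34 days of mechanical stimulation (MS), and PLA_E and PLA_A at 1 h and 34 days of placebo (PLA). Mechanical stimulation, called acupuncture in the labels, was a needle puncture with twirling at bilateral points, while placebo was a saline injection into the peritoneum, so the placebo rats had no puncture at the sampled site. The age of the rats is not given in the sources used here, a rat was sampled only once, and nothing states that the 2 libraries of a group came from separate rats, so p-values measure only the spread between these libraries, which may be technical.

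H19 is a non-coding RNA expressed from the maternal chromosome, and Igf2, its neighbour, encodes a fetal growth factor expressed from the paternal one. Both answer to a shared imprinting control region and enhancers, and both are high before birth and low in most adult tissues, although H19 stays on in adult skeletal muscle and Igf2 is switched on again while muscle regenerates. The miR-675 hairpin lies in the first exon of H19, and its arms are known in muscle for acting on Smad1, Smad5 and Cdc6 during differentiation and in placenta for restraining growth through Igf1r. The miR-483 hairpin lies in an intron of Igf2. H19 RNA also carries binding sites for the let-7 family, which is why that family is described beside the locus.

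The 4 mature sequences are shown because their seeds, bases 2 to 8 from the 5′ end and here in capitals, set which transcripts each arm can pair with.

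rno-miR-675-5p: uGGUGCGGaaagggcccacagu
rno-miR-675-3p: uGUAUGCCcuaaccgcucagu
rno-miR-483-5p: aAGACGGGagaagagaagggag
rno-miR-483-3p: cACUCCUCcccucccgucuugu

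The 4 seeds all differ, and 0 other mature miRNAs of the 693 in the RefSeq table share any of them, so each arm is the single member of its seed group there. The 2 hairpins follow, with the mature arms in capitals, to show that each pair of arms comes from 1 stem and hence from 1 transcript.

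Mir675: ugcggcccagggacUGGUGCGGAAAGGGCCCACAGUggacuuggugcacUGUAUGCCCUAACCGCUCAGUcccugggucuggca
Mir483: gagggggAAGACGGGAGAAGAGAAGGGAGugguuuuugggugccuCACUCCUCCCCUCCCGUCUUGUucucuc

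In RefSeq on build GRCr8, Mir675 lies at chr1:207161752-207161835 within the span of H19 and Mir483 at chr1:207247859-207247931 within the span of Igf2, both on the minus strand and 86.02 kb apart. Each member is listed on 1 precursor only, so its reads are not shared with a copy elsewhere in the files.

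The libraries held 1513799 to 8926170 reads assigned to miRNAs, and the shallowest was CIA_B replicate 1, where 3 reads equal 2.60 cpm (counts per 1000000 reads, scaled by TMM factors) against 0.366 to 0.828 cpm elsewhere. Replicates of every group differed by far more than sampling noise. The labels call the tissue sub-epidermal muscle and the study describes dorsal subcutaneous tissue that includes muscle, and the 4 skeletal muscle miRNAs (miR-1-3p, miR-133a-3p, miR-133b-3p and miR-206-3p) were present in all 10 libraries, at a summed 83894 to 268478 cpm. miR-1-3p ranged from 10115 to 122962 cpm. Since these are bulk samples, fewer cells that make a miRNA and less miRNA per cell cannot be told apart.

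rno-miR-675-3p, the abundant arm of the H19 hairpin, was highest in MS_E, with 32.4 and 43.6 cpm in replicates 1 and 2, from 210 and 279 reads. It stood at 19.2 and 14.6 cpm in PLA_E, 16.4 and 12.9 cpm in PLA_A, 11.2 and 11.3 cpm in CIA_B, and 8.78 and 10.8 cpm in MS_A. Both MS_E libraries lay above all 8 others, while the other 4 groups lay within 8.78 to 19.2 cpm. That placement, also seen for miR-675-5p, held for 3.34% of all tested miRNAs, and as the locus was selected for it nothing is read from it. The order of the group means was MS_E (38.0 ± 7.88 cpm, SD, n = 2), PLA_E (16.9 ± 3.21 cpm), PLA_A (14.7 ± 2.47 cpm), CIA_B (11.3 ± 0.0517 cpm) and MS_A (9.81 ± 1.46 cpm). Of the neighbours in that order, MS_E and PLA_E did not overlap and PLA_E and PLA_A did. PLA_A and CIA_B, and CIA_B and MS_A, did not overlap either, as 20.9% and 10.9% of all tested miRNAs did not in the same directions, but their fitted differences were smaller than the standard errors, at 0.37 (SE 0.46) and -0.19 (SE 0.46) on the log2 scale.

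rno-miR-675-5p, the scarce arm, took the same first 2 places with few reads. It had 4.32 and 6.40 cpm in MS_E, from 28 and 41 reads, and 1.88 and 3.03 cpm in PLA_E, from 14 and 11 reads. In the remaining 6 libraries it lay between 0.865 and 1.90 cpm, from 1 to 9 reads each. The single read of CIA_B replicate 1 allows 0.0219 to 4.82 cpm (exact 95% Poisson interval, counting error only), a range that holds the level of every library but MS_E replicate 2. The group means were 5.36 ± 1.47 cpm in MS_E, 2.46 ± 0.819 cpm in PLA_E, 1.5 ± 0.566 cpm in MS_A, 1.32 ± 0.456 cpm in PLA_A and 1.02 ± 0.220 cpm in CIA_B (SD, n = 2). MS_E and PLA_E did not overlap, while every other pair of neighbours in that order did, and the share of all miRNAs that did not overlap is given with the comparison of these groups.

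rno-miR-483-3p, the abundant arm of the Igf2 hairpin, followed another order. It stood at 14.9 and 13.0 cpm in PLA_E, 7.87 and 18.3 cpm in MS_E, and 13.0 and 5.48 cpm in MS_A. It was lower in CIA_B, at 4.33 and 5.44 cpm, and PLA_A held both the lowest library, at 3.24 cpm, and 1 at 10.0 cpm. MS_E, MS_A and PLA_A were thus spread widely, with SDs of 7.35, 5.35 and 4.80 cpm, and the neighbours in the order of means (PLA_E 13.9 cpm, MS_E 13.1 cpm, MS_A 9.27 cpm, PLA_A 6.63 cpm, CIA_B 4.88 cpm) all overlapped. rno-miR-483-5p had 5.90 and 7.45 cpm in PLA_E, 2.62 and 9.05 cpm in MS_E, 5.19 and 2.65 cpm in CIA_B, 4.74 and 1.83 cpm in MS_A, and 0.996 and 4.74 cpm in PLA_A. The neighbours in the order of its means, from PLA_E (6.67 ± 1.10 cpm) to PLA_A (2.87 ± 2.65 cpm), overlapped as well.

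**Figure D1:**
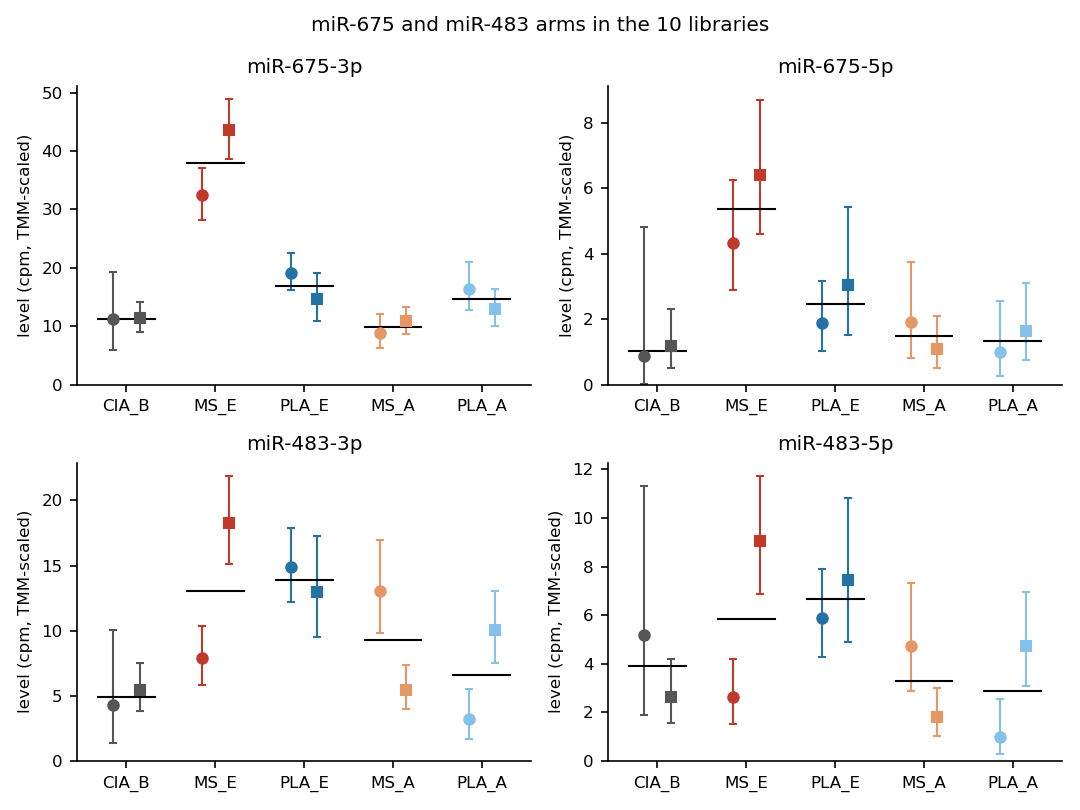
Level of each arm in each library, in cpm with TMM scaling, by group on the horizontal axis. Circles are replicate 1, squares replicate 2, bars the exact 95% Poisson interval of the count, and horizontal lines the group means. Both miR-675 arms have their 2 highest libraries in MS_E (32.4 and 43.6 cpm for miR-675-3p), on which the locus was selected, as do 3.34% of all tested miRNAs. The miR-483 arms scatter within groups.

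The SDs within groups differed between the 2 hairpins. The locus was selected on miR-675 in MS_E relative to CIA_B. Such a choice can favour arms whose replicates match, so nothing is read from the miR-675 SDs. The close CIA_B values of miR-675-3p came from 13 and 77 reads, and the 13 reads alone allow 5.99 to 19.2 cpm. The SD within groups on the log2(cpm + 1) scale was 0.22 for miR-675-3p, with 2.79% of the tested miRNAs smaller, and 0.30 for miR-675-5p. It was 0.67 for miR-483-3p and 0.79 for miR-483-5p, against a median of 0.57 over the 359 miRNAs tested. The added 1 cpm shrinks the spread of scarce arms, and with 0.1 cpm in its place, an alternative chosen after seeing the data, the SD was 0.23, 0.44, 0.75 and 1.02 for miR-675-3p, miR-675-5p, miR-483-3p and miR-483-5p, against a median of 0.65. All 4 arms were of middling to low abundance, from miR-675-3p, which ranked 184 of 359 by mean level, to miR-675-5p, which ranked 320.

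Against CIA_B, where miR-675 was chosen, MS_E had 3.37 times the mean level of miR-675-3p and 5.25 times that of miR-675-5p. The same ratio was 2.68 for miR-483-3p and 1.49 for miR-483-5p, of which the latter overlapped between the groups. With 1 library left out, the log2 of these ratios ran from 0.69 to 1.90 for miR-483-3p and from -0.58 to 1.21 for miR-483-5p. In that comparison 18.4% of the miRNAs tested did not overlap and were higher in MS_E, and nothing is read from the members' count. Every other comparison that contains MS_E (with PLA_E, with MS_A, and the averages over arms or times) uses the libraries in which miR-675 had been found high. The miR-675 values there are descriptions with their standard errors. Their p-values enter only the counts over members and settings further on, and nothing is read from them.

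Whether stimulation and placebo differed was asked at each time. At 1 h miR-675-3p stood 1.15 higher in MS_E than in PLA_E on the log2 scale (SE 0.45) and miR-675-5p 1.04 higher (SE 0.62), neither arm with overlapping libraries. Of all miRNAs 16.4% did not overlap and were higher in MS_E, and nothing is read from the miR-675 count. The miR-483 arms differed by -0.09 (SE 0.69) for miR-483-3p and -0.18 (SE 0.86) for miR-483-5p, with an adjusted p of 0.997 for both in the quasi-likelihood test of edgeR (Benjamini-Hochberg, over the 359 miRNAs). The study called a miRNA at more than 2-fold with p under 0.05 before adjustment, and by these thresholds neither miR-483 arm passed, in a comparison where 3.9% of all tested miRNAs did. At 34 days the arms differed between MS_A and PLA_A by -0.56 (SE 0.45) for miR-675-3p, 0.11 (SE 0.68) for miR-675-5p, 0.44 (SE 0.71) for miR-483-3p and 0.13 (SE 0.90) for miR-483-5p. None of the 4 passed the study's thresholds there, where 1.95% of all tested miRNAs did, and the 2 miR-675-3p libraries of MS_A lay below those of PLA_A, as 12.5% of all miRNAs did.

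Whether the levels at 1 h and at 34 days differed was asked within each arm. Within mechanical stimulation miR-675-3p stood at -1.91 on the log2 scale in MS_A relative to MS_E (SE 0.46), or 0.258 times the mean level, and miR-675-5p at -1.64 (SE 0.64). Neither arm overlapped between the 2 groups, beside 15.6% of all miRNAs that did not overlap and were lower in MS_A, and nothing is read from that count. miR-483-3p and miR-483-5p were -0.49 (SE 0.70) and -0.79 (SE 0.88) between the same groups, with overlapping libraries, and neither passed the study's thresholds, which 3.9% of all miRNAs passed.

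Within placebo the miR-483 arms had the larger estimates, at -1.02 (SE 0.71) for miR-483-3p and -1.09 (SE 0.89) for miR-483-5p in PLA_A relative to PLA_E. Both arms, and miR-675-5p at -0.71 (SE 0.66), were among the 8.91% of miRNAs that did not overlap and were lower in PLA_A. miR-675-3p was -0.20 (SE 0.45) with overlapping libraries. None of the 4 passed the study's thresholds (2.79% of all miRNAs did), and the adjusted p in edgeR was 0.999 for each. The miR-483 estimates rested on PLA_A replicate 1, the library with the lowest level of both arms. Without it they were -0.44 for each arm, and without PLA_A replicate 2 they were -2.09 for miR-483-3p and -2.44 for miR-483-5p, and both passed the study's thresholds in that setting alone, where 22 of the 359 miRNAs passed. With 1 library left in PLA_A, its spread is assumed to be that of the other groups. PLA_A replicate 1 also stood apart in its 4 leukocyte miRNAs, at a summed 12753 cpm against 585 to 1788 cpm in the other libraries, and their part in the miR-483 values was not tested.

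Averaged over both arms, all 4 members lay lower at 34 days than at 1 h, by estimates of -1.06 (SE 0.32) for miR-675-3p, -1.18 (SE 0.46) for miR-675-5p, -0.76 (SE 0.50) for miR-483-3p and -0.94 (SE 0.63) for miR-483-5p. Over all tested miRNAs 44.3% lay below 0 in that comparison. The 1 h values hold the MS_E libraries on which the locus was selected, so nothing is read from the miR-675 part of the count. Neither miR-483 arm passed the study's thresholds, which 4.74% of all miRNAs passed, and their adjusted p in edgeR was 0.801. Without PLA_A replicate 2 both did (-1.30 for miR-483-3p and -1.62 for miR-483-5p), where 28 of the 359 miRNAs passed, and without MS_E replicate 2 the estimates were -0.40 and -0.42. Averaged over both times, stimulation differed from placebo by 0.29 (SE 0.31) for miR-675-3p, 0.57 (SE 0.46) for miR-675-5p, 0.18 (SE 0.50) for miR-483-3p and -0.02 (SE 0.62) for miR-483-5p, and neither miR-483 arm passed the study's thresholds, which 3.34% of all miRNAs passed. In both averaged comparisons the 4 libraries of each side overlapped for every member.

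The change from 1 h to 34 days was itself compared between the arms. For miR-675-3p the change under stimulation minus the change under placebo was -1.71 on the log2 scale (SE 0.63), and for miR-675-5p it was -0.93 (SE 0.91). It was 0.53 (SE 0.99) for miR-483-3p and 0.31 (SE 1.24) for miR-483-5p, with an adjusted p of 0.993 for both in edgeR. The point estimates of the 2 hairpins had opposite signs with wide errors, and with each library left out those of the miR-483 arms crossed 0.

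MS_A, PLA_E and PLA_A were each compared with the libraries before therapy, which these comparisons share as control. The locus was selected on miR-675 in MS_E relative to these same CIA_B libraries, so here too the miR-675 values are descriptions and only the miR-483 arms are tested. In MS_A the differences were -0.19 (SE 0.46) for miR-675-3p, 0.34 (SE 0.73) for miR-675-5p, 0.84 (SE 0.74) for miR-483-3p and -0.17 (SE 0.94) for miR-483-5p. There miR-483-3p was among the 16.2% of miRNAs that did not overlap and were higher in MS_A. Its estimate ranged from 0.16 to 1.25 with 1 library left out. In PLA_E miR-483-3p had an estimate of 1.42 (SE 0.74, unadjusted p = 0.0756, adjusted p = 0.994 in edgeR) and miR-483-5p of 0.80 (SE 0.93), while miR-675-3p and miR-675-5p stood at 0.57 (SE 0.45) and 0.94 (SE 0.72). None of the 4 overlapped with CIA_B, beside 11.7% of all miRNAs that did not and were higher in PLA_E, and nothing is read from the miR-675 part of that count. In PLA_A they were 0.37 (SE 0.46), 0.23 (SE 0.74), 0.40 (SE 0.74) and -0.30 (SE 0.95) for miR-675-3p, miR-675-5p, miR-483-3p and miR-483-5p. Neither miR-483 arm passed the study's thresholds in MS_A, PLA_E or PLA_A against CIA_B, where 1.11%, 0.557% and 6.96% of all miRNAs did. In a fit of only PLA_E and CIA_B miR-483-3p passed (1.39, unadjusted p = 0.0410 and adjusted p = 0.996 in edgeR), where 6 of the 359 miRNAs passed. In the 10 comparisons other than MS_E against CIA_B, 0 of the 40 member values had an adjusted p under 0.05 in edgeR or limma-voom (0% of all tested miRNAs in each comparison with edgeR) and 1 had in DESeq2, which called 5 of the 359 miRNAs in that comparison, MS_A against MS_E. In edgeR 6 had an unadjusted p under 0.05. These 6 and the DESeq2 call are all miR-675 values of comparisons that contain MS_E, on which the locus was selected, so nothing is read from them. Over all miRNAs the share below that p ran from 0.557% in PLA_E against CIA_B to 7.52% in PLA_A against CIA_B and was 6.41% between the times.

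**Figure D2:**
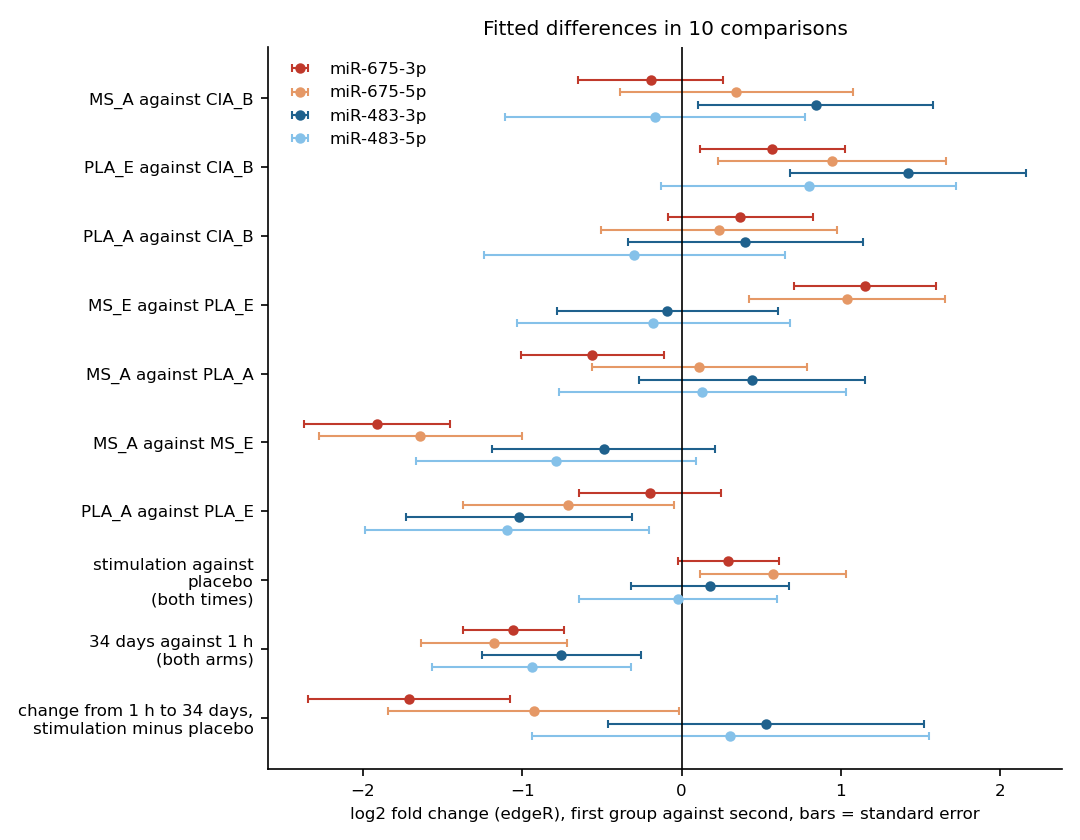
Fitted log2 fold changes of the 4 arms in 10 comparisons (edgeR, first group against second), with bars for the standard error. The miR-675 arms lie farthest from 0 in MS_A against MS_E (-1.91 and -1.64), and the miR-483 arms have bars from 0.69 to 1.24 wide on each side in the comparisons of 2 groups and of the changes.

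The balance of the arms showed which strand each hairpin yielded. Over all libraries the 5p arm made up 11.4% of the 1171 miR-675 reads and 30.5% of the 771 miR-483 reads, so the 3p arm prevailed at both. The 5p share of miR-675 ran from 5.71% in PLA_A replicate 1 to 17.8% in MS_A replicate 1, and the 2 MS_E libraries, at 11.8% and 12.8%, lay in the middle of that range. It averaged 11 ± 5.07% at 34 days and 12.7 ± 3.43% at 1 h (SD, n = 4), a difference of -1.69 points, smaller than either SD. Between stimulation and placebo it averaged 12.9 ± 3.6% and 10.8 ± 4.84%, a difference of 2.12 points. Both comparisons hold the MS_E reads on which the locus was selected and are given as descriptions, with no test. The 5p share of miR-483 lay between 23.5% and 36.5% in 9 libraries and at 54.5% in CIA_B replicate 1, which had 11 miR-483 reads.

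Since H19 and Igf2 are neighbours with opposite parental expression, the reads of the 2 hairpins were set against each other, a ratio that needs no scaling between libraries. There were 3.50 miR-675 reads per miR-483 read in MS_E replicate 1 (238 and 68 reads, 95% Wilson interval 2.68 to 4.58) and 1.83 in MS_E replicate 2 (320 and 175 reads, 1.52 to 2.20). PLA_E gave 1.01 and 0.865, CIA_B 1.27 and 1.55, and MS_A 0.60 and 1.63. PLA_A replicate 1 had the highest ratio of all, 4.12 (70 and 17 reads, 2.44 to 6.95), beside 0.988 in replicate 2. The MS_E ratios hold the miR-675 reads on which the locus was selected, so no group is set above another by them, and the ratio of PLA_A replicate 1 goes with the lowest miR-483 level of all libraries.

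**Figure D3:**
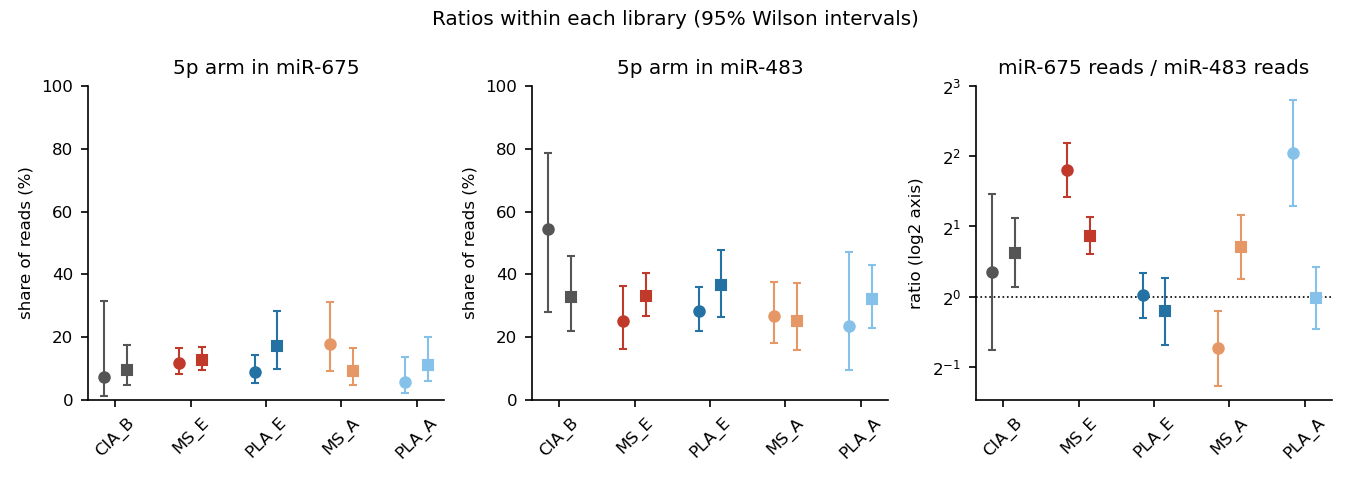
Share of the 5p arm among miR-675 reads and among miR-483 reads, in percent, and miR-675 reads per miR-483 read, by group. Circles are replicate 1, squares replicate 2 and bars 95% Wilson intervals of the counts. The 5p share of miR-675 stays between 5.71% and 17.8%, and the ratio is highest in PLA_A replicate 1 (4.12) and MS_E replicate 1 (3.50).

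The miRNAs most like each arm were ranked by Pearson's r of log2(cpm + 1) over the 10 libraries, which share depth and composition, so the values are descriptions. For the miR-675 arms the ranking holds the MS_E libraries in which they were selected as high. It thus favours miRNAs that are high there, and nothing is read from it. Each arm had its own partner from the same hairpin first, with r = 0.83 and Spearman's rho = 0.55 for the miR-675 arms and r = 0.82 and rho = 0.73 for the miR-483 arms. After its partner, miR-675-3p was most like miR-200a-3p (r = 0.73), miR-20a-5p (0.70), miR-485-3p (0.69) and miR-218a-5p (0.68). After its partner, miR-675-5p was most like miR-495 (0.79), miR-485-3p (0.76), miR-483-3p (0.72) and miR-224-5p (0.72). miR-483-5p had miR-431 (0.75), miR-154-5p (0.68), miR-411-5p (0.58) and miR-1839-3p (0.55), and miR-483-3p had miR-672-5p (0.78), miR-675-5p (0.72), miR-34a-5p (0.64) and miR-495 (0.63). Between the hairpins miR-675-3p and miR-483-3p had r = 0.39, which placed miR-483-3p at rank 65 of the 358 other miRNAs. miR-485-3p, miR-495, miR-431, miR-154 and miR-411 belong to the imprinted Dlk1-Dio3 cluster. Of these miR-485-3p was near the floor, with group means from 0.0911 cpm in PLA_A to 1.94 cpm in MS_E.

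miR-200a-3p belongs to the miR-200 family of epithelial cells, and the list of 7 epithelial miRNAs was highest in 1 MS_E library. Their summed level was 447 and 119 cpm in the MS_E libraries, 33.7 and 70.9 cpm in CIA_B, and 57.9 to 135 cpm in PLA_E, MS_A and PLA_A, with 3 of the 7 at 0 in a CIA_B library. The 2 slow-fibre miRNAs, miR-499-5p and miR-208b-3p, were lowest in MS_E, at a summed 56.5 to 94.4 cpm against 113 to 1025 cpm elsewhere. The 4 leukocyte miRNAs summed to 587 and 1782 cpm in MS_E, and 2 erythroid miRNAs to 14.7 to 84.4 cpm over all libraries. The part of any of these in the miR-675 values was not tested.

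The other imprinted miRNAs were counted as a list, of the Dlk1-Dio3 cluster, Mest (miR-335) and Gnas (miR-296 and miR-298), with 92 rows listed and 57 tested. At 34 days against 1 h, averaged over both arms, all 57 lay below 0 with a median of -0.71 on the log2 scale, against a median of 0.06 over all 359 miRNAs, in which 44.3% lay below 0. The count was 50 to 57 below 0 with each library left out and 56 in limma-voom. Of the 57, 0 had an adjusted p under 0.05 and 6 passed the study's thresholds, all lower at 34 days, beside 4.74% of all miRNAs. The list's largest estimates were -1.62 (SE 1.01) for miR-409a-5p and -1.43 (SE 0.99) for miR-485-3p. Their means in PLA_A were 0.125 and 0.0911 cpm, where 3 reads equal 0.747 and 0.547 cpm, so both estimates rest on very few reads. In the same comparison miR-483-3p stood at -0.76 (SE 0.50) and miR-483-5p at -0.94 (SE 0.63). The miR-675 arms, at -1.06 and -1.18, rest on the MS_E libraries in which the locus was selected. Nothing is read from their place beside the list. Many of the 57 are made from 1 polycistronic transcript and are not independent.

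Against CIA_B the list's values moved with single libraries. Of all tested miRNAs 44.3% lay below CIA_B in PLA_A, 40.7% in MS_A, 44.8% in PLA_E and 45.1% in MS_E. In PLA_A 50 of the 57 lay below CIA_B (median -0.96), 7 of them past the study's thresholds, beside 6.96% of all miRNAs, and without CIA_B replicate 1 the median was -0.60. In MS_A 46 lay below (median -0.73), with a median of -0.21 without MS_A replicate 1, -0.25 without CIA_B replicate 1 and -1.11 without MS_A replicate 2. In PLA_E 40 lay below (median -0.29), but 27 with scaling by library size only, where the median turned to 0.025, and leaving out a library of either group moved the median to between -0.64 and -0.075. In MS_E 39 lay above (median 0.30), but 29 without MS_E replicate 2 (median 0.062) and 30 without CIA_B replicate 2 (median 0.041), and the median was 0.58 without CIA_B replicate 1 and 0.51 with scaling by library size only. Between the times within each arm most of the list lay lower at 34 days. In MS_A against MS_E 53 of the 57 were below 0 (median -0.94), beside 47.4% of all miRNAs, and 3 passed the study's thresholds, beside 3.9% of all. In PLA_A against PLA_E 52 were below 0 (median -0.58), beside 44.8% of all miRNAs, and 2 passed, beside 2.79%. Without PLA_E replicate 2 that became 39 of 57 with a median of -0.28. In MS_A against MS_E the median was -0.57 without MS_E replicate 2, -0.50 without MS_A replicate 1 and -1.44 without MS_A replicate 2. At 1 h 48 of the 57 were higher in MS_E than in PLA_E (median 0.67, all miRNAs 0.03), with 2 past the study's thresholds, beside 3.9% of all miRNAs, and miR-494-3p (1.84, SE 1.84) and miR-539-3p (1.67, SE 0.85) the largest. At 34 days 44 of the 57 were higher in MS_A than in PLA_A (median 0.33), while 52.6% of all miRNAs lay below 0. Of the list 1 passed the study's thresholds there, beside 1.95% of all. Without MS_A replicate 2 the direction turned, with 19 of 57 higher and a median of -0.17. Averaged over both times, 47 of the 57 were higher under stimulation (median 0.51), while 52.4% of all miRNAs lay below 0. Of these 3 passed the study's thresholds, beside 3.34% of all miRNAs. Without MS_A replicate 2 the count higher became 37 of 57 with a median of 0.23. Scaling by library size only moved the median of all miRNAs to -0.23 in MS_E against PLA_E and to -0.30 in stimulation against placebo, where the list's medians were then 0.43 (46 of 57 above 0) and 0.29 (41 of 57). miR-335 of Mest stood at 63.8 ± 38.3 cpm in MS_E and 34.5 to 50.1 cpm in the other groups' means, and miR-298-5p of Gnas at 11.3 ± 9.57 cpm in MS_E and 5.34 to 6.28 cpm elsewhere, with wide spread between the MS_E libraries.

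**Figure D4:**
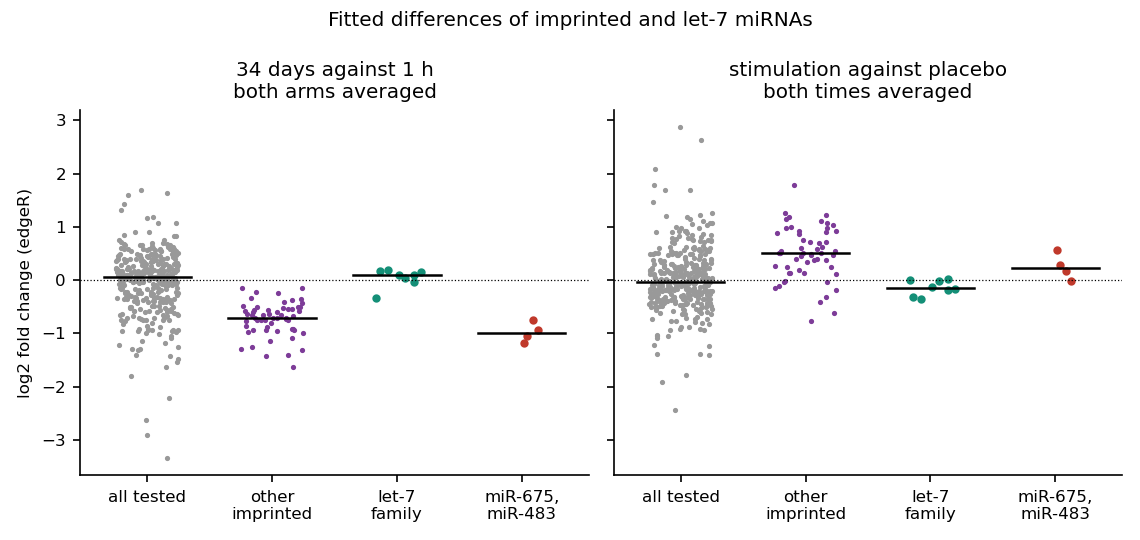
Fitted log2 fold changes (edgeR) of all 359 tested miRNAs, the 4 H19-Igf2 arms, the 57 other imprinted miRNAs and the 8 let-7 members, for 34 days against 1 h and for stimulation against placebo. Dots are miRNAs and lines are medians. In the first panel all 57 other imprinted miRNAs lie below 0, at a median of -0.71. The median of the 4 arms, -0.999, holds the miR-675 arms, which were selected as high in MS_E, so nothing is read from it.

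The let-7 family, whose binding H19 RNA is known for, was abundant. Its 8 members, let-7a-5p to let-7i-5p and miR-98-5p, summed to 21369 to 29592 cpm across the libraries, and none passed the study's thresholds or an adjusted p under 0.05 in any comparison. Single members varied more than the sum, with let-7b-5p between 704 and 1899 cpm and let-7d-5p between 672 and 1679 cpm, and 7 of the 8 lay lower in MS_E than in PLA_E (median -0.21), beside 47.9% of all miRNAs. That median was -0.54 with scaling by library size only, -0.52 without MS_E replicate 1, -0.40 without PLA_E replicate 1, -0.12 without MS_E replicate 2 and -0.13 without PLA_A replicate 1. let-7f-5p was the most abundant, at 8195 cpm in MS_E and 11937 cpm in PLA_E, a difference of -0.54 (SE 0.45). let-7d-5p had the largest difference between those groups, -0.71 (SE 0.45), with an adjusted p of 0.832 in edgeR. At 34 days against 1 h the largest were -0.33 (SE 0.36) for miR-98-5p and 0.20 (SE 0.31) for let-7d-5p.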

How the data were processed

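Small RNA libraries (TruSeq, Illumina HiSeq) of 10 rat tissue samples were used, 2 in each of 5 groups taken from the labels. Per the labels and the study's methods, base calling was with CASAVA 1.8, adapters were trimmed and reads under 18 bases discarded with miRDeep2's mapper, and the quantifier counted reads against rn4 and miRBase 18. The authors deposited whole-number read counts per mature miRNA and precursor, with no normalization. For the 35 miRNAs listed on several precursors the highest of their counts was taken, which touches no member. A series-wide table was left out because the names of its 20 columns fit no sample.

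TMM factors and edgeR's quasi-likelihood test (edgeR 4.0.16, R 4.3.3) were run on all 10 libraries in 1 fit with a mean per group, on the 359 miRNAs that reached 1 cpm in 5 or more libraries (364 removed), with a prior count of 2. Standard errors are the log2 fold change before shrinkage divided by the square root of F, and edgeR raises the p of a scarce miRNA to that of a Poisson fit where that is larger. Benjamini-Hochberg adjustment was over the 359. Limma-voom (limma 3.58.1), DESeq2 1.42.0, other scalings, no filter, a replicate block, summed precursors, a miR-1-3p covariate, only the groups compared, and each library left out were tried. The fit was tested on simulated data. Without molecular identifiers, intervals and floors hold for counting error alone. Between 2 and 2 libraries an exact permutation test cannot go below 0.333, so none was made.

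The members and lists were chosen with earlier results of these data known. The rule for names took every member, the 2 largest differences of a list, and the 5 miRNAs most like each arm. Sequences and positions are from RefSeq on GRCr8, matched by name for 4 of 4 members. It is not the build of the files, and no coordinate was converted.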

Additional observations from a re-analysis of the deposited data

How the results depend on the processing

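Of 400 member differences recomputed with 1 library left out, 370 kept their direction and their side of an adjusted p of 0.05 and 30 turned direction, none of them for miR-675-3p outside PLA_A against PLA_E. No member was under that threshold in edgeR with all libraries, so keeping its side was nearly fixed in advance. Most omissions from a pairwise comparison touched neither of its groups. The 370 thus says little about how firm an estimate is, and it includes the selected miR-675 values. Of 360 under other settings, 355 kept both.

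DESeq2 brought miR-675-3p in MS_A against MS_E past the adjusted threshold, at -1.96, beside 5 of the 359 miRNAs called by it, in libraries on which the locus was selected. With scaling by library size only, MS_A against PLA_A turned to -0.14 for miR-675-5p and -0.15 for miR-483-5p, and stimulation against placebo to -0.066 for miR-483-3p. The cause was not tested.

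Libraries with the same number deviated together in no regular way (correlations of -0.55 to 0.63 over 10 pairs of groups), so no pairing by number was seen. With so few libraries in a group, this check cannot exclude that some were handled together. With the replicate block miR-675-3p stayed at 1.15 in MS_E against PLA_E and -1.91 in MS_A against MS_E, no call changed, and miR-483-5p turned to 0.014 in stimulation against placebo.

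With each library left out, ranges that crossed 0 were -0.42 to 0.0055 for miR-675-3p in PLA_A against PLA_E, and for miR-675-5p -0.19 to 0.46 in PLA_A against CIA_B and -0.19 to 0.49 in MS_A against PLA_A. For miR-483-3p they were -0.68 to 0.95 in PLA_A against CIA_B, -0.79 to 0.32 in MS_E against PLA_E, -0.26 to 1.47 in MS_A against PLA_A, -1.15 to 0.21 in MS_A against MS_E, -0.18 to 0.69 in stimulation against placebo and -0.16 to 1.58 for the change compared between arms. For miR-483-5p they were -0.83 to 0.29 in MS_A against CIA_B, -1.63 to 0.36 in PLA_A against CIA_B, -1.23 to 0.37 in MS_E against PLA_E, -0.58 to 1.44 in MS_A against PLA_A, -1.45 to 0.26 in MS_A against MS_E, -0.55 to 0.62 in stimulation against placebo and -0.38 to 1.64 for the change compared between arms. The log2 ratio of MS_E to CIA_B means ranged from 1.52 to 1.95 for miR-675-3p, 0.69 to 1.90 for miR-483-3p and -0.58 to 1.21 for miR-483-5p. The difference in the 5p share of miR-675 between times ranged from -3.95 to 0.067 points. With Spearman's rho, 3 of the 5 miRNAs most like miR-675-5p and 2 of those most like miR-675-3p stayed among the 5.

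The number of miRNAs past the study's thresholds moved with the setting, from 4 to 30 in MS_A against MS_E and from 7 to 35 in MS_E against PLA_E with 1 library left out, where 14 passed in each with all libraries. With 1 read of miR-675-5p in CIA_B replicate 1 and 4 in PLA_A replicate 1, depth limits what that arm can show.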
